A study of Mus musculus with 10 samples.

Results

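AP-1 is the family of dimeric transcription factors built from Fos and Jun proteins. Its 8 members described here were Fos, Fosb, Fosl1 and Fosl2 of the Fos family, Jun, Junb and Jund of the Jun family, and Atf3, a related partner. They were found by gene name among the 39273 genes of the deposited table, each name once, and all 8 passed the filter on low counts. The genes were chosen on the values of these same libraries, because immediate early genes, several AP-1 members among them, were higher in ureteric bud (UB) organoids of day 20 than of day 10. Contrasts with day 20 are therefore given as a description with no test, and the results turn on which member led each group and on the comparisons between the other groups.

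Fos proteins do not pair with each other and bind DNA only as partners of Jun proteins, whereas Jun proteins also pair among themselves. The dimers bind a short palindromic site called the TPA response element, and pairs with ATF proteins bind the closely related cyclic AMP response element. Transcription of Fos, Fosb, Jun, Junb and Atf3 is switched on within minutes of growth factor or stress signals, with no new protein needed, which is why they are called immediate early genes, and their mRNAs are short-lived. Fosl2 and Jund are less dependent on such signals and are found in many resting cells.

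UB organoids are branching cultures of the embryonic epithelium that gives rise to the collecting duct (CD) of the kidney. They were grown from kidneys of Wnt11-RFP +/- embryos of a C57BL/6 x Swiss Webster cross, of age E11.5 by the source labels of days 5 and 10 and by the methods, and kept in the medium mUBCM for 5, 10 or 20 days. CD organoids came from UB organoids of day 10 that were moved to CDDM, a differentiation medium. Adult CD cells were sorted by FACS for Hoxb7-Venus, a reporter driven by a promoter active in the ureteric lineage, from mice about 2 months old. Each of these 5 groups had 2 libraries. The labels of the adult libraries give an embryonic age, the Wnt11-RFP +/- genotype and the word organoid, as they do for the organoids, whereas the design text and the methods describe sorted adult cells. No source states that the libraries of a group came from separate cultures or animals, so that p-values measure only the spread between these libraries. According to the paper, mUBCM contains growth factors of the FGF and GDNF kind and inhibitors of JAK and of p38 kinases, among other additives. CDDM contains PD0325901, an inhibitor of the MEK kinase that acts upstream of ERK. It also contains an FGF, the Notch pathway inhibitor DAPT, the hormones aldosterone and vasopressin and a further small molecule. CD organoids thus differed from UB organoids in several additives at once. They were also cultured longer than day 10 organoids, and the parts of these differences cannot be told apart. Cultures older than day 5 had been passaged, whereas adult cells were dissociated and sorted before lysis.

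Total counts per library ranged from 11913613 in a CD organoid library to 24536676 in a day 10 library, so that 3 counts, below which a gene was treated as not detected, were worth 0.109 to 0.241 CPM, that is, counts scaled to the size of the library. This limit covers counting error only. Libraries of days 5 and 10 had at least 22858971 counts, and those of day 20, CD organoids and adult cells at most 16759872. Comparisons of day 5 or 10 with these other groups thus also crossed a difference in depth, whose part was not tested. CPM were scaled with TMM factors of 0.792 to 1.12, and the 2 lowest factors were those of the adult libraries. Of the ureteric markers, Ret had 656 ± 64.9 CPM at day 5, 1483 ± 176 CPM at day 10 and 2087 ± 17.7 CPM at day 20. Wnt11, which the paper names beside Ret as a marker of UB progenitors, fell over the same days. It had 436 ± 85.1 CPM, 151 ± 58.9 CPM and 20.95 ± 2.52 CPM, so that these markers disagreed across UB organoids. In CD organoids both were low, with 16.6 ± 1.13 CPM for Ret and 0.405 ± 0.233 CPM for Wnt11. The group means of Cdh1 were at least 653 CPM, whereas Pax2 and Hoxb7 were lowest in adult cells. The water channel gene Aqp2, which defines principal cells, had 559 ± 104 CPM in CD organoids and 4458 ± 119 CPM in adult cells, against at most 3.80 ± 4.35 CPM in UB organoids. Other principal cell markers differed from it. Aqp3 had 21.3 ± 3.22 CPM in CD organoids and 1920 ± 40.4 CPM in adult cells. Scnn1b had 326 ± 19.7 CPM in CD organoids and at most 71.9 ± 14.6 CPM in UB organoids. Scnn1g had 124 ± 6.21 CPM in CD organoids, near its 117 ± 41.1 CPM at day 5. The group means of Avpr2 were at most 0.233 CPM. The summed level of 4 Y-linked genes was at most 0.875 CPM at days 5 and 10 and between 229.8 and 295 CPM in the other groups, so that day 10, the base of several comparisons, also differed from these groups in Y-linked expression. Its part in the results was not tested.

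The promoters of members that are highly inducible are shown beside that of Fosl2, because the lead of the Fos family passed between Fosl2 and Fos. The sequences are the 250 bases upstream of the RefSeq start on GRCm38.p6, written 5′ to 3′ toward the gene, and 7 of the 8 members had an entry. Capitals mark matches to TGACG, to TGANNTCA or to TATAAA.
Fos (chr12:85473640-85473889, plus strand): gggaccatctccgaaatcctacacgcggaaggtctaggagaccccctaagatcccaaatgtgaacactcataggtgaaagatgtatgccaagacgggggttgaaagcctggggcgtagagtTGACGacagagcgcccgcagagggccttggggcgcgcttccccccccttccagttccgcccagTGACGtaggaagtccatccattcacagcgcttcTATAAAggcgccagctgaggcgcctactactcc
Fosb (chr7:19310046-19310295, minus strand): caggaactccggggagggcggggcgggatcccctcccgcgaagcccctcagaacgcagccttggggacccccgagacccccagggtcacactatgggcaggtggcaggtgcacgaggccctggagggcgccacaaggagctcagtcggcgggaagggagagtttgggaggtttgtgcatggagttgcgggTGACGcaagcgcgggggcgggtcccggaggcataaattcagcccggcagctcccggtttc
Junb (chr8:84978749-84978998, minus strand): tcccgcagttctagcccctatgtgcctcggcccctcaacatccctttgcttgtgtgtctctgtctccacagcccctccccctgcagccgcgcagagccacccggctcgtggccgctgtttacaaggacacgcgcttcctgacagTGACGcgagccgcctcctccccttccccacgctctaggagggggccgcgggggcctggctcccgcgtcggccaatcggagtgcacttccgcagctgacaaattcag
Atf3 (chr1:191183334-191183583, minus strand): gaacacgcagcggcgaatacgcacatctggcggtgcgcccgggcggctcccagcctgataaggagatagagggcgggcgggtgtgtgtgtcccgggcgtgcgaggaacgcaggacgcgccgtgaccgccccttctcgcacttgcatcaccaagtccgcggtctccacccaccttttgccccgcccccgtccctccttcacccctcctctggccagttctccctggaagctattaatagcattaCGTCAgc
Jun (chr4:95052223-95052472, minus strand): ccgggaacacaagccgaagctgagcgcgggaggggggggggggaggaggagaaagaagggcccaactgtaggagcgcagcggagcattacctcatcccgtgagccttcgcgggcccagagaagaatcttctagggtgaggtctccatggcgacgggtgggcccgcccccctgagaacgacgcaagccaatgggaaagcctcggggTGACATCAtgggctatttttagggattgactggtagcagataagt
Fosl2 (chr5:32136222-32136471, plus strand): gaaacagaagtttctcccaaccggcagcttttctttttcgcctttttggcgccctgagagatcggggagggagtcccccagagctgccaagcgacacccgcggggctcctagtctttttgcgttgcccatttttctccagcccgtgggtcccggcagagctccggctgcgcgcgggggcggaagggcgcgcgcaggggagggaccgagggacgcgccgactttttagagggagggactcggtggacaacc
The motifs were searched on both strands, with these sequences already in view. TGACG, which begins the cyclic AMP response element, occurred at positions -129 and -66 of Fos, at -60 of Fosb, at -106 of Junb and, on the reverse strand as CGTCA, at -7 of Atf3, counted to the first base of the match from the start of transcription. TGANNTCA, a looser form that includes the whole element, occurred at -45 of Jun as TGACATCA. None of these matches overlapped another. TATAAA occurred at -33 of Fos. In the window of Jund, which is not printed, TGANNTCA occurred at -61. Neither TGANTCA, the form of the TPA response element, nor the CArG box bound by serum response factor was found in these windows, and the Fosl2 window held none of the 5 motifs. Bases further upstream than 250 were not searched, so that these absences hold for the windows only and not for the whole promoters. Among all 32817 promoters of the same length, 17.7% held TGACG, 11.9% TGANNTCA, 6.75% TGANTCA, 1.47% a CArG box and 12.4% TATAAA. The RefSeq start lay 671 bases from the GENCODE start of Fosl2, 1210 bases from that of Jund and 34706 bases from that of Atf3, so that these are windows at one of several starts.

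The Fos family was split between a gene that was present in every group and 3 genes that were low in most. Fos, the founding member, had 1.45 and 2.16 CPM in the libraries of day 5 and 3.41 and 3.21 CPM at day 10. It had 707 and 932 CPM at day 20, 12.3 and 20.4 CPM in CD organoids and 4239 and 4034 CPM in adult CD cells. Thus the groups followed the order day 5, day 10, CD organoid, day 20 and adult, and no neighbors in that order overlapped. Fosb, the closest relative of Fos, had 0.598 and 1.10 CPM at day 5, 1.15 and 0.984 CPM at day 10, 509 and 727 CPM at day 20, 1.14 and 6.42 CPM in CD organoids and 4733 and 3994 CPM in adult cells. Its order was the same, but days 5 and 10 overlapped, and so did day 10 and CD organoids, whose libraries were 16 and 80 counts.

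Fosl1, which encodes FRA1, a Fos protein without the strong activation domain of Fos, was at or near the limit of detection in 3 groups. At days 5 and 10 its libraries held 0, 1, 3 and 1 counts, at day 20 they held 31 and 26, in CD organoids 0 and 0, and in adult cells 271 and 209. These last correspond to 20.4 and 16.4 CPM, so that even there it was the lowest Fos gene per length. Fosl2, which encodes the related FRA2, had 173 and 277 CPM at day 5, 284 and 199.8 CPM at day 10, 143 and 173 CPM at day 20, 441 and 454 CPM in CD organoids and 902 and 804 CPM in adult cells. It was the only member whose lowest group was day 20, and of its neighboring groups only days 5 and 10 overlapped, although the nearest libraries of days 20 and 5 were almost equal.

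In the Jun family the 3 genes were detected in every library. Jun, the strongest activator among the Jun proteins, had 162 and 154 CPM at day 5, 129.7 and 121 CPM at day 10, 1087 and 1349 CPM at day 20, 123 and 121 CPM in CD organoids and 2354 and 2258 CPM in adult cells. CD organoids and day 10 overlapped, and the other neighbors in its order, day 5, day 20 and adult, did not. Junb, which can counteract Jun at many promoters, had 34.4 and 51.99 CPM at day 5, 36.4 and 18.05 CPM at day 10, 246 and 306 CPM at day 20, 65.5 and 72.5 CPM in CD organoids and 2405 and 2131 CPM in adult cells. Only days 10 and 5 overlapped in its order. Jund, the member known for broad and steady expression, had 76.7 and 72.4 CPM at day 5, 43.1 and 42.04 CPM at day 10, 115 and 139 CPM at day 20, 125 and 125 CPM in CD organoids and 436 and 422 CPM in adult cells. It was lowest at day 10, and CD organoids and day 20 overlapped.

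Atf3, a stress-induced factor that dimerizes with Jun proteins and often represses, had 9.65 and 13.5 CPM at day 5, 16.5 and 23.01 CPM at day 10, 377 and 531 CPM at day 20, 7.05 and 10.3 CPM in CD organoids and 3135 and 2868 CPM in adult cells. CD organoids were its lowest group and overlapped with day 5. All 8 members thus had their highest values in both adult libraries. Together they took 0.0456% to 0.0572% of all counts at days 5 and 10, 0.0803% to 0.0847% in CD organoids, 0.351% to 0.446% at day 20 and 1.31% to 1.44% in adult cells. In bulk samples such as these, fewer cells with a transcript and less of it per cell cannot be told apart.

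**Figure D1:**
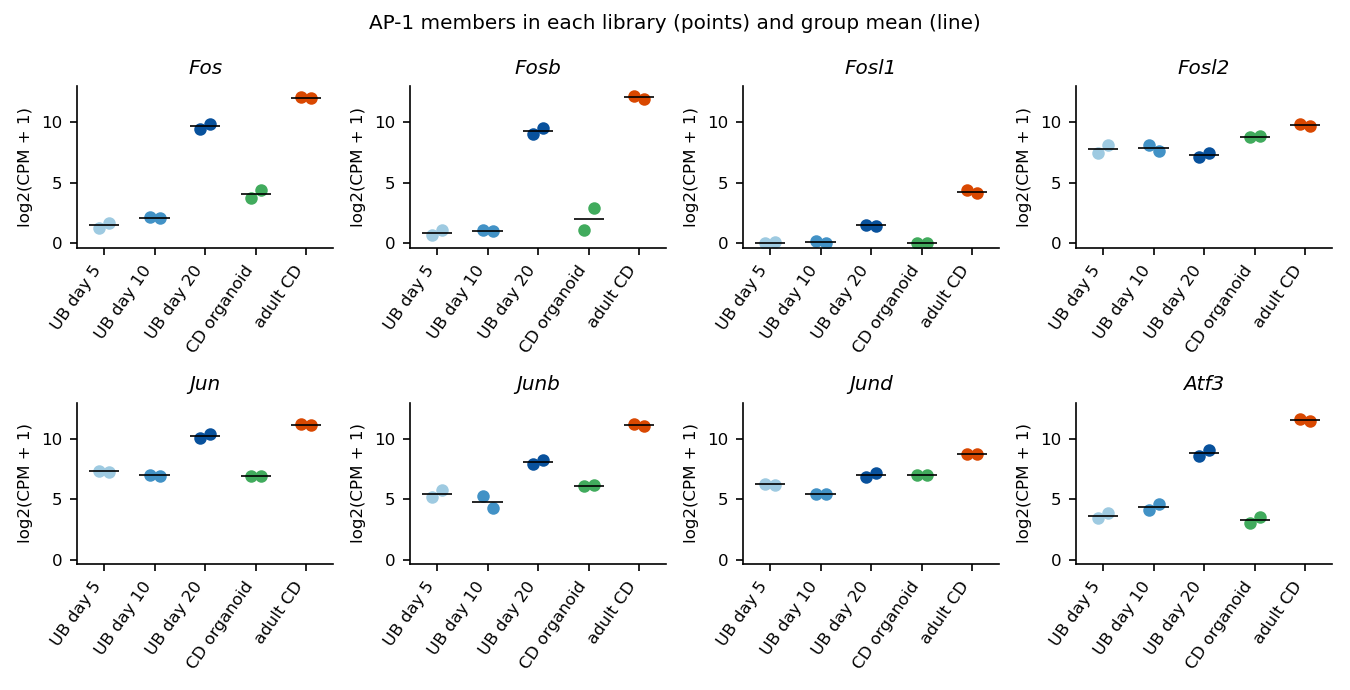
Level of each AP-1 member, as log2(CPM + 1) on the vertical axis, in the 5 groups of the horizontal axis. Points are the 2 libraries of a group and lines their mean. Fos, Fosb, Fosl1, Junb, Jun and Atf3 stand out at UB day 20 and in adult CD cells, whereas Fosl2 spans only 143 to 902 CPM over all 10 libraries.

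Which member led its family was read per length, as the share of each gene in the summed RPKM of its family, since a longer transcript collects more reads. By the RPKM the authors deposited, Fosl2 made up 97.6% and 97.7% of the Fos family in the libraries of day 5, 96.5% and 95.6% at day 10 and 92.9% and 88.7% in CD organoids. At day 20 its share was 6.19% and 5.67%, and in adult cells 6.11% and 5.87%. There Fos led, with 82.1% and 81.9% at day 20 and 76.9% and 78.7% in adult cells, and Fosb followed with 11.8% ± 0.646 and 15.7% ± 1.07 (SD, n = 2). In CD organoids Fosl2 was in the lead, with Fos at 8.81% ± 2.64. They differed from day 10 organoids in both medium and time in culture, which cannot be told apart. With 2 libraries against 2 an exact two-sided permutation test cannot give a p below 0.333, so the shares were not tested.

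The leader of the Jun family differed among UB organoids, CD organoids and adult cells. Jun led in UB organoids, with 42.01% ± 2.59 at day 5, 49.4% ± 3.51 at day 10 and 62.6% ± 0.132 at day 20 (SD, n = 2). At day 5 Jund was close behind, with 39.7% and 36% against 43.8% and 40.2% for Jun in the same libraries. In CD organoids Jund led with 50.1% and 48.99%, and Jun and Junb took 25.3% and 25.2%. Junb led in adult cells with 57.1% and 55.1%, followed by Jun with 32.4% and Jund with 11.2% and 11.8%. In each group the leader was the same in both libraries.

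These shares depend on the length by which counts are divided. The deposited length of most genes is close to the exons summed over all of its transcripts, so that exons shared by several transcripts enter more than once, and the RPKM of a gene with many transcripts is too low. It was 22912 bases for Fosb, 3.67 times the 6243 bases of its merged exons, and 1.86 times the merged length for Fos, 2.05 times for Atf3, 1.34 times for Fosl1, 1.21 times for Fosl2, and 1.00 for Jun and Jund. Junb was an exception, with a deposited length of 1810 bases, near the 1809 bases of its longest transcript and 0.787 times the 2301 bases of its merged exons, so that its RPKM was higher than merged exons would give. With merged exons the leaders were the same in all 5 groups. Fosl2 then had 96.2% at day 5, 93.8% at day 10 and 86.1% in CD organoids, and Fos had 75.1% at day 20 and 68.9% in adult cells. The share of Fosb was then 21.2% and 27.3% in these 2 groups. Counts not divided by length turned the order of the means in adult cells in both families. Fosb (46.5%) then lay beside Fos (44.2%), and Jun (46.1%) beside Junb (45.3%). The libraries disagreed, since Fos still led Fosb in replicate 2 (45.6% against 45.1%) and Junb still led Jun in replicate 1 (46.3% against 45.3%). In CD organoids Jund (39.6%) was then only just above Jun (38.6%).

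**Figure D2:**
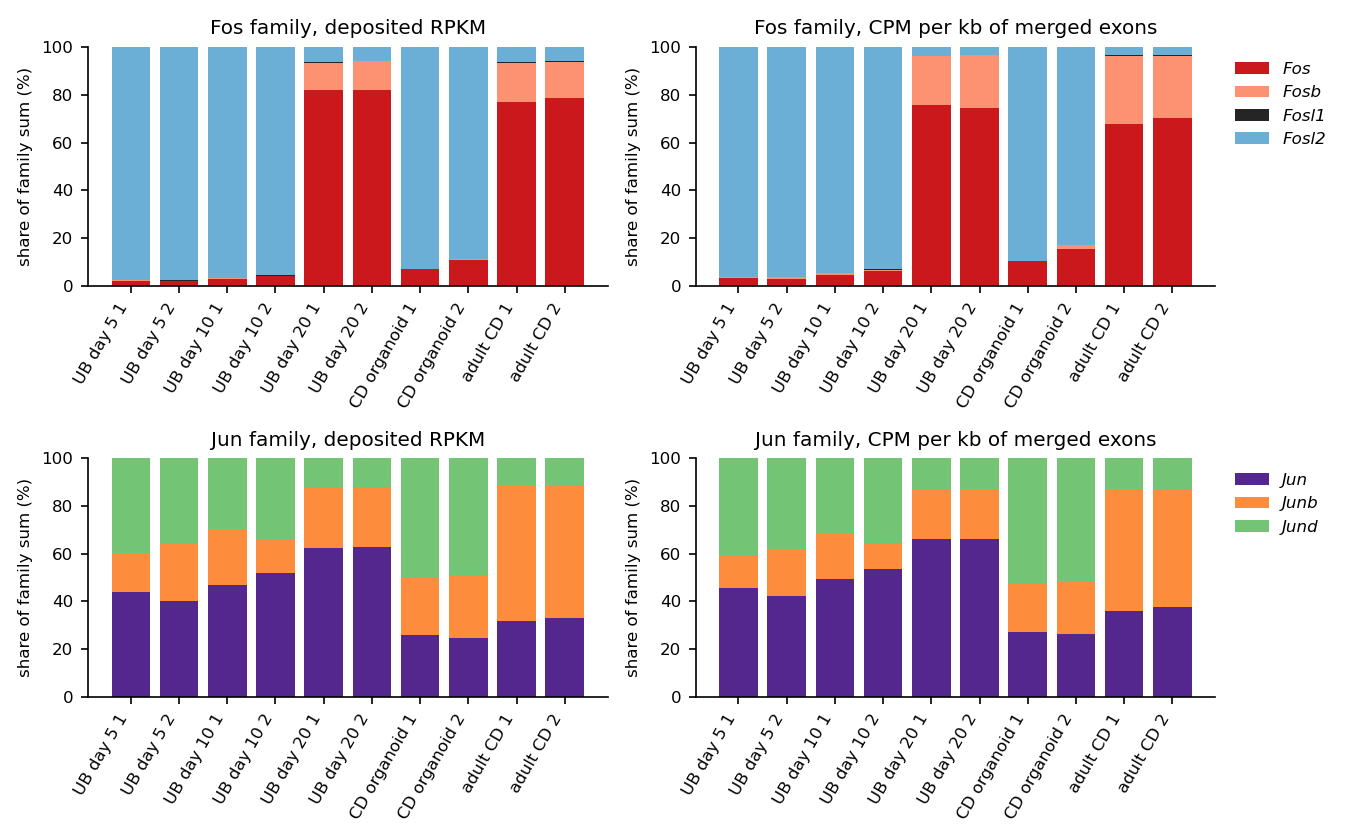
Share of each gene (vertical axis, percent) in the summed level of the Fos family (top) and Jun family (bottom) in each of the 10 libraries, by deposited RPKM (left) and by CPM per kb of merged exons (right). By deposited RPKM, Fosl2 fills 88.7% to 97.7% of the Fos family at UB days 5 and 10 and in CD organoids, and Fos 76.9% to 82.1% at day 20 and in adult cells.

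Set against the whole Jun family, the Fos family weighed most in adult cells. The ratio of the summed RPKM of the Fos genes to that of the Jun genes was 0.166 ± 0.0490 at day 5, 0.267 ± 0.0327 at day 10, 0.278 ± 0.0110 in CD organoids, 0.372 ± 0.0173 at day 20 and 0.544 ± 0.00447 in adult cells (SD, n = 2). With merged exons it was 0.213 ± 0.0654, 0.345 ± 0.0459, 0.376 ± 0.0238, 0.800 ± 0.0431 and 1.30 ± 0.00484 in the same order, so that Fos genes exceeded Jun genes in adult cells by this length and not by the deposited one. Among all 8 genes in adult cells, Junb had the highest deposited RPKM with 1268 ± 114, against 955 ± 37.98 for Fos, 732 ± 25.1 for Jun and 687 ± 46.4 for Atf3. By merged exons Fos was highest with 1759 ± 61.5 CPM per kb, followed by Atf3 with 1393 ± 87.4. In CD organoids Jund was highest with 77.2 ± 0.139 RPKM, and Fosl2, Jun and Junb had 39.4, 39.4 and 39.3 RPKM, whereas by merged exons they had 46.2, 38.2 and 29.98 CPM per kb, below 74.9 for Jund.

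From day 5 to day 10 no member passed the test. Calls required more than 4-fold and an adjusted p no higher than 0.01 in the quasi-likelihood test of edgeR. At day 10, 2.34% of the 24410 genes were higher by this rule and 1.07% lower, against 0 of 8 members. DESeq2 also called 0, and 5 members had an unadjusted p under 0.05. At an adjusted p of at most 0.05 with any fold change, 15.8% of all genes were higher and 16.9% lower, and so were 2 members each. The higher ones were Fos, with a log2 fold change of 0.85 ± 0.30 (SE, adjusted p = 0.0441), and Atf3, with 0.77 ± 0.21 (adjusted p = 0.0126). The lower ones were Jund with −0.81 ± 0.0873 (adjusted p = 1.33e-05) and Jun with −0.33 ± 0.0946 (adjusted p = 0.0152). Junb had −0.67, Fosl2 0.10 and Fosb 0.30, none of which passed that threshold, and Fosl1 was at or under 3 counts in all 4 libraries. Apart from that of Jund, these looser calls depended on single libraries. The adjusted p of Fos was 0.255 without day 5 replicate 1, 0.0967 and 0.0813 without day 10 replicate 1 or 2, 0.0613 and 0.0607 without adult replicate 1 or 2, and 0.0715 with only both groups in the fit. That of Atf3 was 0.126 without day 5 replicate 1 and 0.0868 without day 10 replicate 2, and that of Jun 0.0987 without day 5 replicate 1 and 0.121 with library totals. Junb passed as lower without day 10 replicate 1 (−1.26, adjusted p = 2.41e-05), without day 5 replicate 1 (−0.93, adjusted p = 0.0281) and with no filter (adjusted p = 5.02e-12). The median of the other 7 members was 0.10, beside 0.021 for all genes.

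CD organoids against day 10 answer which members accompanied the step from UB to CD. Day 10 is also the base of the day 20 rise by which the genes were chosen, so day 5 was used as a second base. Only Fos was called, 1 of 8 members, where 4.96% of all genes were higher and 5.71% lower. Fos rose 4.86-fold over day 10, a log2 fold change of 2.28 ± 0.23 (adjusted p = 1.95e-06), and 8.74-fold over day 5 (adjusted p = 1.75e-07), where it was again the only member called. This call rested on CD organoid replicate 2, since without it the log2 fold change was 1.90, under 4-fold, and no member was called. Fosb had 1.73 ± 0.57 (adjusted p = 0.0222), and rested on the same library, of 80 counts against 16. Without CD organoid replicate 2 it had 0.11 (adjusted p = 0.900), without replicate 1 it was called at 2.53, and with only both groups in the fit its adjusted p was 0.0679. At the looser threshold of 0.05 with any fold change, 22.1% of all genes were higher and 25.2% lower, and 5 members were higher and 1 lower.

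Beside Fos and Fosb, the members past that looser threshold were Jund with 1.55 ± 0.0884 (adjusted p = 5.75e-09), Junb with 1.34 ± 0.25 (adjusted p = 5.61e-04) and Fosl2 with 0.89 ± 0.19 (adjusted p = 0.00141), all higher in CD organoids (Junb 1.95 without day 10 replicate 1), and Atf3 with −1.19 ± 0.24 (adjusted p = 8.37e-04), which was lower. Jun differed by less than its error, with −0.042 ± 0.10 (adjusted p = 0.755), and this difference changed sign with the scaling. Fosl1 was at or under 3 counts in both groups, which gives no fold change. The median of the other 7 members was 1.34, where that of all genes was −0.15. Against day 5 Atf3 had −0.42 ± 0.25 (adjusted p = 0.180) and Jun −0.38 ± 0.10 (adjusted p = 0.00440), so that the lower Atf3 was past 0.05 against day 10 and not against day 5.

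CD organoids were next compared with the sorted adult cells. The adult cells also differed from organoids in age, in dissociation and sorting before lysis, and in markers of other cell types. The parts of these differences cannot be told apart, here or in the comparison of adult cells with day 10. Of the 8 members 6 were called lower in CD organoids and 0 higher, where 9.84% of all genes were lower and 4.5% higher. Fosb was 1176-fold lower (log2 −10.20 ± 0.40, adjusted p = 1.39e-10), Atf3 345-fold (log2 −8.43 ± 0.26) and Fos 253-fold (log2 −7.98 ± 0.22). The value of Fosb was 674-fold without CD organoid replicate 1 and 3695-fold without CD organoid replicate 2. Fosl1, which had no count in CD organoids, was at least 76.6-fold lower there when 3 counts per library are taken as the limit. Junb was 32.9-fold and Jun 18.9-fold lower, with adjusted p from edgeR of 3.70e-09 and 4.00e-12. Jund and Fosl2 stayed under the 4-fold limit, with log2 fold changes of −1.78 ± 0.0865 (adjusted p = 1.13e-09) and −0.93 ± 0.19 (adjusted p = 9.29e-04). These were the members that led their families in CD organoids. The median of the members was −5.65 with Fosl1 at its bound, and that of all genes 0.

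Against day 10, 7 members were called higher in adult cells and 0 lower, where 13.4% of all genes were higher and 9.1% lower. The adult libraries are shared with the comparison above, and the day 10 libraries with the CD organoid comparison. Fosb rose by a log2 fold change of 11.93 ± 0.43 and Fos by 10.27 ± 0.25 (adjusted p = 2.42e-11 and 8.00e-13), followed by Atf3 with 7.24 ± 0.23 and Junb with 6.38 ± 0.29 (7.00 without day 10 replicate 1). The Jun gene rose 18.4-fold and Jund 10.1-fold. For Fosl1, called as well, the ratio of counts was 243, with an exact 95% interval of 94.3 to 896 that covers counting error only. Fosl2 was 3.53-fold higher, at 1.82 ± 0.19 (adjusted p = 1.54e-06), and passed the 4-fold limit with 2.12 only without day 10 replicate 1. The same 7 members were called against day 5. The median of the members was 6.81 with Fosl1 at its bound, and that of all genes −0.21.

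The scaling mattered for the adult comparisons. With library totals in place of TMM factors the median of all genes moved from 0 to 0.34 for CD organoids against adult cells and from −0.21 to −0.64 for adult cells against day 10. The share of called genes that were higher moved from 31.4% to 44.4% in the first comparison and from 59.6% to 44.5% in the second. The members kept their calls in both under every scaling.

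**Figure D3:**
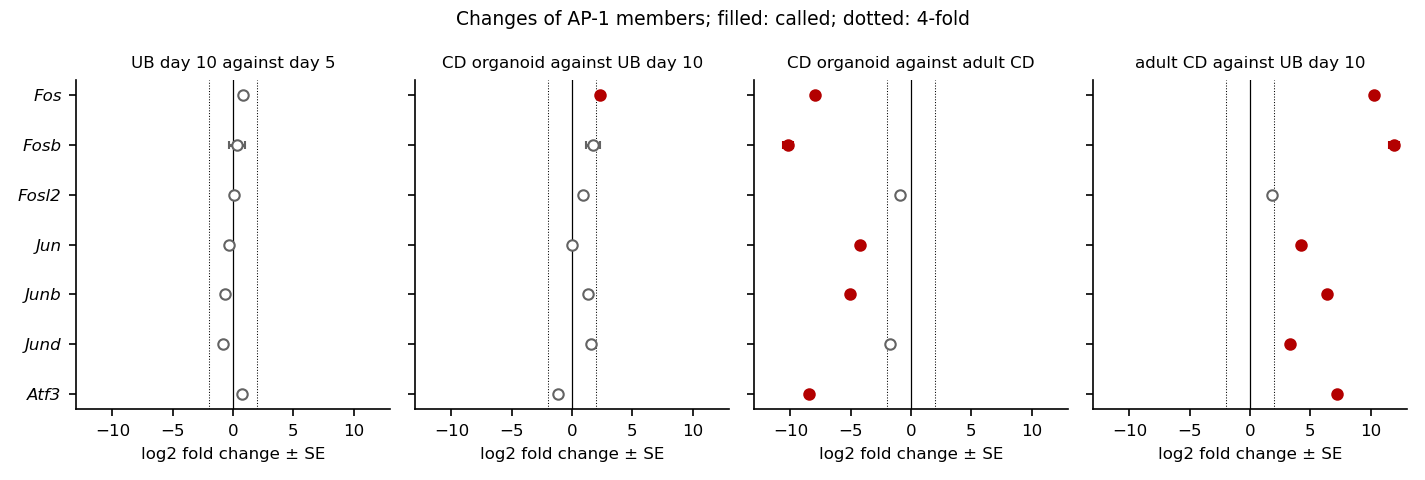
Log2 fold change ± SE (horizontal axis) of 7 AP-1 members in the 4 tested comparisons, from edgeR with all 10 libraries in the fit. Filled red points passed an adjusted p of at most 0.01 and 4-fold, the latter drawn as dotted lines. Fosl1 is left out because its fold rests on groups with 4 or fewer counts. Fos alone passed in CD organoids against UB day 10, and Fosl2 in no comparison.

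At day 20, which gave the choice of the genes, 7 members lay above both day 10 libraries and Fosl2 below them. Among all genes, 26.7% lay above and 37.8% below in this way, and nothing is read from the members' count. The log2 differences were 9.11 for Fosb, 7.93 for Fos, 4.52 for Atf3, 3.34 for Junb, 3.28 for Jun, 1.57 for Jund and −0.62 for Fosl2. Fosl1 had a ratio of counts of 23.7 (exact 95% interval 8.78 to 90.1). Adult cells were above day 20 in every member, from 0.92 for Jun to 3.32 for Fosl1, and Junb differed by 3.04, Fosl2 by 2.44. CD organoids were below day 20 in 6 members. Jund overlapped there, with −0.022, and Fosl2 was 1.51 above.

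The pathway around the members was read from lists of partners, inducers, restraints and targets, which were also chosen with results of these libraries known. Medians leave out genes at or under 3 counts in all libraries compared, and take a gene that was so in 1 group at its bound. Of all genes, 2.34% were called higher and 1.07% lower from day 5 to day 10. In CD organoids these shares were 4.96% and 5.71% against day 10, and 4.5% and 9.84% against adult cells. In adult cells against day 10 they were 13.4% and 9.1%. The medians of all genes, without bounds, were 0.021, −0.15, 0 and −0.21 in this order. Of 12 other bZIP partners, 7 were called higher and 1 lower in adult cells against day 10, and 4 were lower in CD organoids than in adult cells. DESeq2 called 6 higher in the first of these. The medians were 2.28 and −1.83. Mafk, a small Maf protein that pairs with other bZIP factors, rose from 8.64 ± 0.725 CPM at day 10 to 453 ± 31.8 CPM in adult cells (SD, n = 2, log2 fold change 5.70, adjusted p = 5.04e-13), and had 61.9 ± 8.39 CPM at day 20. Maff, its relative, reached 431 ± 44.8 CPM in adult cells (5.90, adjusted p = 2.27e-11). Maf was the partner called higher at day 10 than at day 5, from 1.34 ± 1.05 to 27.4 ± 17.9 CPM (log2 fold change 4.29, adjusted p = 1.58e-05), and Jdp2, named after its value was seen, was the one called lower. In CD organoids against day 10 these calls were 1 each, Jdp2 higher and Batf3 lower. The list medians were 0.0036 from day 5 to day 10 and 0.46 in CD organoids.

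Of 13 kinases and factors that switch on AP-1 genes, edgeR and DESeq2 called 0 from day 5 to day 10 and 0 in CD organoids against day 10, where 5 and 10 had an unadjusted p under 0.05. The medians were 0.063 and −0.25, near the 0.021 and −0.15 of all genes. Srf, the serum response factor that binds the CArG box, was called as lower in CD organoids than in adult cells, the only gene of the list, with 33.7 ± 0.860 against 145 ± 4.96 CPM (log2 fold change −2.11, adjusted p = 4.30e-10). It had 174 ± 15.9 CPM at day 20 and 51.8 ± 3.71 CPM at day 10. Mapk7, which encodes the kinase ERK5, was the gene called lower in adult cells than at day 10, with 13.2 ± 2.28 against 57.9 ± 5.14 CPM (−2.13, adjusted p = 2.88e-09). The list medians were 0.22 in CD organoids against adult cells and −0.24 in adult cells against day 10.

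Genes that restrain AP-1, by removing phosphate from its kinases or by degrading its mRNAs, moved in opposite directions. Of 12, 5 were called higher and 2 lower in adult cells against day 10, with a median of 1.76. Zfp36, which encodes an mRNA decay factor, had 14.3 ± 2.32 CPM at day 10, 351 ± 67.8 CPM at day 20, 44.7 ± 2.27 CPM in CD organoids and 4572 ± 471 CPM in adult cells (adult against day 10 8.32, adjusted p = 2.89e-13). Dusp1, a phosphatase of JNK and p38, had 3.60 ± 0.347 CPM, 189 ± 46.4 CPM, 9.66 ± 0.0650 CPM and 514 ± 2.06 CPM in the same groups (7.14, adjusted p = 8.44e-13). The genes called lower were Dusp6 and Dusp4, phosphatases that are themselves induced by ERK signaling, and DESeq2 called 1 gene of the list lower there.

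Both were also the genes of the list called lower in CD organoids against day 10. Dusp6 fell from 403 ± 70.2 to 55.1 ± 0.0413 CPM (log2 fold change −2.87, adjusted p = 3.80e-10) and Dusp4 from 96.2 ± 19.9 to 8.01 ± 1.46 CPM (−3.57, adjusted p = 3.64e-10). One gene, Dusp8, was called higher there, and Dusp10 was called higher at day 10 than at day 5. Both were named after their values were seen. Against adult cells 4 restraint genes were lower in CD organoids, with a median of −1.29, and the medians of the other comparisons were −0.30 from day 5 to day 10 and 0.36 in CD organoids against day 10.

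Textbook targets of AP-1, 14 of 15 of which were tested, include proteases, their receptors and growth factors. In adult cells 9 were called higher than at day 10 and 0 lower, with a median of 3.55, and 7 were lower in CD organoids than in adult cells (6 by DESeq2), with a median of −2.0. Hbegf, a ligand of the EGF receptor, had 9.40 ± 0.609 CPM at day 10 and 1071 ± 106 CPM in adult cells (6.82, adjusted p = 1.26e-12), and Plau, the urokinase protease, 7.65 ± 0.676 and 859 ± 2.38 CPM (6.80, adjusted p = 2.21e-12). At day 20 Hbegf had 129 ± 27.3 CPM and Plau 14.6 ± 3.52 CPM.

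In CD organoids against day 10, 4 targets were called higher and 1 lower, with a median of 1.52. Hbegf rose to 39.4 ± 4.01 CPM (2.06, adjusted p = 1.40e-07) and Plau to 51.4 ± 7.73 CPM (2.74, adjusted p = 1.75e-08), and Ptgs2 was also called higher. Ccnd1, the gene of cyclin D1, fell from 199.6 ± 73.9 to 10.97 ± 1.10 CPM (−4.18, adjusted p = 2.23e-09), while adult cells had 396 ± 6.86 CPM. From day 5 to day 10, 2 targets were called higher, with a list median of −0.086. They were Plaur, the receptor of urokinase, which rose from 0.648 ± 0.0502 to 18.7 ± 8.997 CPM (4.74, adjusted p = 1.27e-06), and Ptgs2.

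The other immediate early genes had the largest share of calls among the 6 lists in both adult comparisons. Of 17, 16 were called higher in adult cells than at day 10, with a median of 4.91, and 16 lower in CD organoids than in adult cells, with a median of −4.23. In CD organoids against day 10 they split, with 4 higher, 5 lower and a median of −0.22. Egr1, a zinc finger factor induced through serum response factor, fell from 115 ± 10.7 CPM at day 10 to 5.19 ± 3.32 CPM in CD organoids (−4.48, adjusted p = 6.45e-09), and had 2149 ± 282 CPM at day 20 and 4088 ± 579 CPM in adult cells. Ccn1, a matrix protein gene, fell from 76.6 ± 35.3 to 6.71 ± 0.938 CPM (−3.51, adjusted p = 1.86e-07), and Egr2, Egr3 and Arc were the other genes called lower.

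The 4 genes called higher beside Fos in CD organoids were Klf6, Btg2, Klf4 and Nr4a3. Klf6, a zinc finger factor, rose from 37.03 ± 9.52 to 204 ± 7.24 CPM (2.46, adjusted p = 3.20e-08) and Btg2, an antiproliferative gene, from 23.99 ± 0.0596 to 209.8 ± 0.194 CPM (3.13, adjusted p = 1.05e-09). From day 5 to day 10, Arc, Egr2 and Egr3 were called higher, with a list median of 0.24. Genes named here without values were outside the rule for naming genes and were named because of their calls.

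Heat shock genes encode chaperones that are induced by heat and other stress. The sum of 8 such genes was 5456 to 5699 CPM in adult cells, against 1719 to 1761 CPM at day 20, 1659 to 1751 CPM at day 5, 1232 to 1579.9 CPM at day 10 and 1517 to 1527 CPM in CD organoids. Against day 10, 4 were called higher in adult cells and 0 lower, with a median of 2.76, and 2 were higher in CD organoids, with a median of 0.28. Dnajb1, which encodes an HSP40 chaperone, had 56.3 ± 1.34 CPM at day 10, 77.2 ± 7.35 CPM at day 20 and 799 ± 19.5 CPM in adult cells (3.82, adjusted p = 8.00e-13). Hspa1b had 25.2 ± 3.02, 43.2 ± 1.23 and 1176 ± 58.5 CPM in these groups and 115 ± 1.75 CPM in CD organoids, and Hspa1a 497 ± 40.2 CPM in adult cells, but these near-identical copies share reads and their split is uncertain. Hsph1, which with these 3 was lower in CD organoids against adult cells, had 88.6 ± 0.303 and 384 ± 22.5 CPM, and the median of the list there was −1.82. From day 5 to day 10 edgeR and DESeq2 called 0, 4 had an unadjusted p under 0.05, and the median was −0.38. The part of heat shock in the adult values of the AP-1 members was not tested.

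Markers of several other cell types also moved with the adult group. Of 6 proximal tubule markers none was at 0 there, and their sum was 3377 to 4035 CPM in adult libraries against at most 33.9 CPM elsewhere. The loop of Henle markers Umod and Slc12a1 summed to 3274 to 3466 CPM against at most 5.13 CPM, and 3 endothelial markers to 404 to 419.5 CPM against at most 2.45 CPM, also with none at 0. The 4 leukocyte markers summed to 21.4 to 25.2 CPM in adult libraries and 46.5 to 52.7 CPM in CD organoids. Most of the latter sum was Ptprc, with 40.5 ± 4.49 CPM, while Cd68 had 8.42 ± 0.335 CPM. Laptm5 and Cd52 had only 0.556 ± 0.220 and 0.0757 ± 0.00636 CPM in CD organoids. The 4 stromal markers summed to 59.998 to 66.96 CPM in adult libraries and 41.9 to 97.1 CPM in CD organoids, against at most 17.96 CPM in UB organoids. In CD organoids most of this sum was Col1a1, with 53.4 ± 32.4 CPM. The 3 nephron progenitor markers went the other way, with 0.678 to 0.864 CPM in adult libraries and 16.1 to 18.7 CPM at day 20. The 5 intercalated cell markers summed to 1046 to 1135 CPM in CD organoids and 1840 to 1886 CPM in adult libraries. Of these, Foxi1 was higher in CD organoids, with 490 ± 25.0 against 169 ± 0.562 CPM, and the others were higher in adult cells. At day 20 the sums of proximal tubule, loop of Henle and endothelial markers were at most 33.9, 3.37 and 2.45 CPM. Their part in the levels of the AP-1 members in adult cells was not tested.

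**Figure D4:**
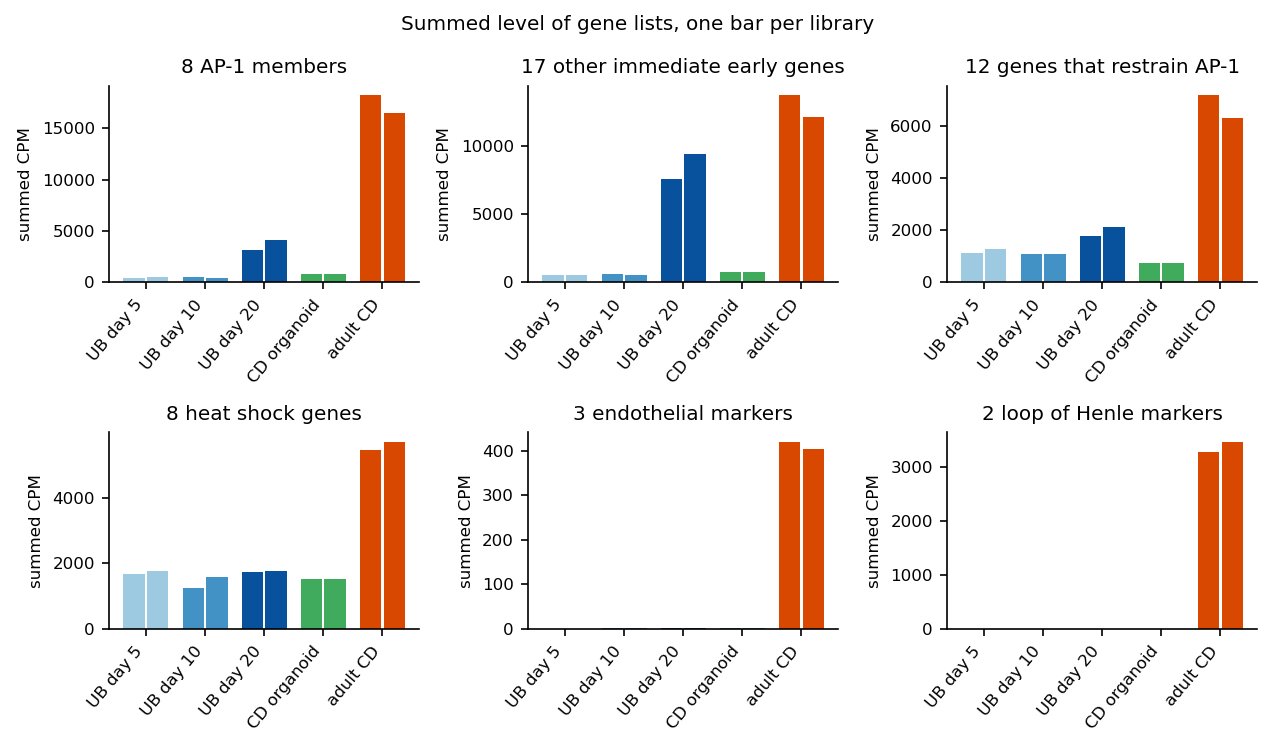
Summed CPM (vertical axis, linear and starting at 0) of 6 gene lists in the 5 groups, with 1 bar per library. AP-1 members and the other immediate early genes are raised at UB day 20 and in adult CD cells. Heat shock genes, endothelial markers and loop of Henle markers are raised in adult cells and at day 20 reach at most 1761, 2.45 and 3.37 CPM.

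Over the 10 libraries the members varied together, apart from Fosl2. The Pearson r of log2(CPM + 1) between Fos and Fosb was 0.991, that between Jun and Atf3 0.983 and that between Junb and Jund 0.946, whereas Fosl2 had at most 0.726, with Jund, and 0.317 with Jun. These values describe 10 libraries in 5 groups, which share the adult and day 20 levels. Among genes with a mean of at least 10 CPM, the nearest to Fos were Dusp1 (0.995), Dstn (0.985) and Nr4a1 (0.984), and Nr4a1 had 15.3 CPM at day 10, 851 CPM at day 20, 48.7 CPM in CD organoids and 917 CPM in adult cells. Among the genes nearest to Jund were Pacsin2 (0.986) and Oat (0.984). Oat shared the low value of Jund at day 10, with 86.1 CPM against 139 CPM at day 5. For Atf3 they were Mgp (0.988), Slc16a4 (0.988) and Tprkb (0.985). Mgp had 0.0204 CPM at day 5, 0.447 at day 10 and 0.441 in CD organoids, against 10.8 at day 20 and 39.4 in adult cells. It thus reached the mean of 10 CPM only through groups where Atf3 was also high. For Fosl1 they were Zfp655 (0.997), Ifrd1 (0.995) and Nufip2 (0.993), and Ifrd1 had 89.5 CPM at day 20 and 871 CPM in adult cells. Fosl1 had at most 3 counts in every library of days 5 and 10 and of CD organoids. Its r values therefore rest on the day 20 and adult libraries.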

How the data were processed

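RNA-seq libraries of UB organoids, CD organoids and adult CD cells were analysed from the table the authors deposited. The deposited counts are whole numbers per gene. According to the methods, reads were aligned with STAR to mm10 and counted on GENCODE M24 genes in Partek Flow with its E/M model. That model divides multi-mapping reads among genes, so that near-identical genes are uncertain. The submitters' processing notes name FastQC 0.11.8, cutadapt 2.5, Trimmomatic 0.36, STAR, edgeR 3.28.1 and the build GRCm38.p6. Which of these accounts gave the deposited counts was not settled. The authors further deposited RPKM, scaled by TMM and by a gene length that lies within 1% of the summed exon lengths of all transcripts for 96.8% of genes with several transcripts and within 1% of the merged exons for 0.170%, and a TMM-scaled signal, which was not used. The labels name RNeasy and TruSeq kits, the methods Direct-zol and KAPA Stranded kits. If strand was not used in counting, reads of antisense genes cannot be told apart.

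The members, lists and thresholds were chosen with earlier results of these data known. Counts of 24410 genes with a sum of at least 10 were fitted with edgeR 4.0.16 in R 4.3.3 (quasi-likelihood test, TMM, prior count 1, Benjamini-Hochberg adjustment over all genes), with all 10 libraries in one fit of group means. The dispersion shared by all genes was 0.00831, with 7.90 prior degrees of freedom at the median. Named were all 8 members, at most 4 called genes per list with the highest mean CPM, and the 3 genes most like Fos, Fosl1, Jund and Atf3. Some of the genes that this rule gives are not reported here. Positions and merged exon lengths came from GENCODE M21 on GRCm38, and promoters from RefSeq. Alternatives changed scaling, filter, prior count, tool (DESeq2 1.42.0), libraries in the fit, threshold, base group and length, and left out each library. The length of the longest transcript was added after the data were seen. Summaries used Python 3.11.15 with pandas 2.3.3, numpy 2.4.6 and scipy 1.17.1, and figures matplotlib 3.10.9.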

Additional observations from a re-analysis of the deposited data

How the results depend on the processing

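The members called were the same number under RLE, upper-quartile or library-total scaling, no filter or a stricter one, a prior count of 5, the block and DESeq2. At an adjusted p of at most 0.05 with any fold change they were 4 from day 5 to day 10 and 6 in CD organoids against day 10, and the genes called 7969, 11530, 12168 and 15078 in the 4 comparisons, against 832, 2604, 3499 and 5494. From day 5 to day 10 a prior count of 5 gave 518 and a fit of the 2 groups alone 539. Leaving out each library in turn gave 0 to 2 members in CD organoids against day 10, 640 to 1049 genes from day 5 to day 10, and 7 to 8 members in adult cells against day 10. Fos in CD organoids against day 10 had 1.90 without CD organoid replicate 2. Of the members' fold changes, 616 kept their direction and side of the threshold, 14 newly passed it, 1 no longer did and 7 changed sign. Those were Fosb from day 5 to day 10 (−0.038 without day 5 replicate 1, and −0.038 to 0.78 over all libraries left out), Fosl2 from day 5 to day 10 (−0.18 without day 5 replicate 1 or day 10 replicate 1, up to 0.48), and Jun in CD organoids against day 10 (0.016 with RLE or DESeq2, 0.0045 with only the 2 groups, and −0.072 to 0.023 with a library left out).

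Shares by CPM, by merged exons and by the longest transcript were 51.4%, 75.1% and 67.4% for Fos at day 20, 44.2%, 68.9% and 60.3% for Fos in adult cells, 98.8%, 96.2% and 96.9% for Fosl2 at day 5, and 98.2%, 93.8% and 95.03% at day 10. By CPM and merged exons they were 95.7% and 86.1% for Fosl2 in CD organoids, 75.2% and 66.1% for Jun at day 20, 45.3% and 50.1% for Junb in adult cells, and 39.6% and 52.4% for Jund in CD organoids. By CPM, Jun had 57.3% at day 5, 64.4% at day 10 and 38.6% in CD organoids, where Jund was only just above it.

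Libraries with the same replicate number deviated from their group means with r between −0.0162 and 0.0809 over 10 pairs of groups, so the numbers do not pair them. A fit with the replicate number as a block called 826, 2583, 3414 and 5369 genes and 0, 1, 6 and 7 members in the 4 comparisons, and changed no other call. With 2 libraries per group, the spread rests on the estimate shared by all groups, and 3 counts per library limit Fosl1.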
